A study of Mus musculus with 3 samples.

Results

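Of the genes named on a mouse 1-colour microarray, 10 encode G protein coupled receptors through which mast cells sense soluble mediators, out of 31131 genes in all. They were taken by gene name: the adenosine receptors Adora2a, Adora2b and Adora3, the histamine receptor Hrh4, the complement receptors C3ar1 and C5ar1, the leukotriene receptors Cysltr1, Cysltr2 and Ltb4r1, and the nucleotide sugar receptor P2ry14. Together they are read by 12 probes of 60 bases, each spotted once. The RNA was from BMMCs, which are mast cells cultured from bone marrow, of male, 12-week-old C57BL/6 mice. All cells lacked Pafah2, a phospholipase that cuts oxidised fatty acids from phospholipids, and no array of cells with an intact Pafah2 was analysed here. One array held cells given 300 nM omega-3 epoxides, a mixture of 17,18-EpETE with 19,20-EpDPE at 2 to 3. Another held cells given 0.5 µM GW9662, which blocks the nuclear receptor PPAR gamma, and the last held cells given the vehicle DMSO. Each treatment lasted 12 h. With 1 array per treatment, the spread between cultures is unknown and no test of a difference was possible.

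The labels of the treated arrays are in doubt. The authors' deposited value table carries under the epoxide sample the readings that the scanner file of the GW9662 sample gives, and the reverse for GW9662. The arrays are called here after the sample that carries the scanner file. Should the value table be right, each statement on a treated array belongs to the other treatment.

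G protein coupled receptors sit in the cell membrane and, on binding a ligand, switch on a heterotrimeric G protein inside the cell. Receptors that couple to Gs raise cyclic AMP, a brake on mast cell degranulation, whereas those that couple to Gi lower it and release G beta-gamma subunits that drive PI3K gamma, migration and secretion. In mast cells such receptors adjust the response to IgE and guide the cells to sites of inflammation.

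A level is given below as the log2 of the processed spot intensity over the 75th percentile of its array, so 0 is that percentile itself. A log2 ratio is a difference between the levels of 1 probe on different arrays, and 1 on this scale is 2-fold. Levels of different probes are not comparable, since probes bind with different strength. Among the 12 probes, 9 were well above background on all 3 arrays, and 8 of the 10 genes were thus measured in every comparison. Hence C5ar1 and Cysltr1 could not be compared in full. No spot of these probes was saturated or marked as an outlier. The arrays shared 1 slide and 1 scan, and between 52.3% and 54.6% of their 43020 spots were well above background.

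**Figure D1:**
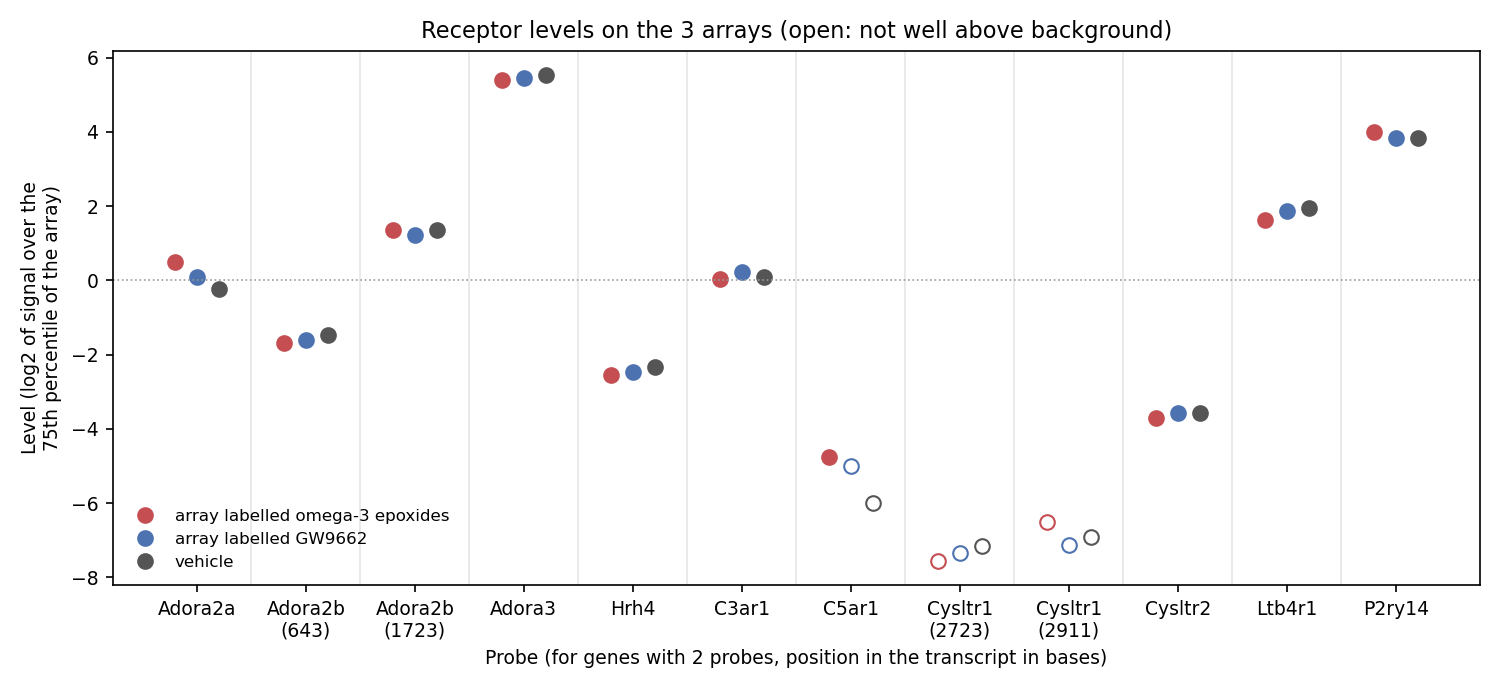
Level of each receptor probe (log2 of signal over the 75th percentile of the array, vertical axis) on the array labelled omega-3 epoxides, the array labelled GW9662 and the vehicle array, 1 point per array; filled points were well above background. For Adora2a the points run from 0.51 on the array labelled epoxides down to -0.25 with vehicle, and for Adora3 they lie between 5.40 and 5.53.

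Among the 8 measured receptors, Adora2a had arrays that lay farthest apart. It encodes a Gs-coupled adenosine receptor that restrains activated leukocytes. On the array labelled epoxides its level was 0.51, against 0.09 on that labelled GW9662 and -0.25 with vehicle. In processed intensity this was 3286, 2133 and 1616 in the same order, and the raw signal stood 59.2, 30.5 and 22.7 times over the background that the scanner software subtracted. Both treated arrays thus lay above vehicle, and the array labelled epoxides was highest. In bulk RNA, more cells that hold a transcript and more of it per cell cannot be told apart. The probe lies on chromosome 10 (mm9 chr10:74797461-74797520, forward strand), at base 2527 of the transcript. Its last 30 bases are shown because every Adora2a value rests on this 1 probe, with capitals for AATAAA, the commonest signal for cutting and polyadenylating an mRNA.
Adora2a: ccctgagataaAATAAAatgagccacactg

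On the array labelled epoxides, Adora2a had a log2 ratio over vehicle of 0.75 (1.68-fold). Of 15818 genes measured on both arrays, 99 (0.626%) had a ratio as high or higher. No receptor reached 2-fold, a difference that 362 of these genes (2.29%) showed, 34 of them higher (0.215%) and 328 lower (2.07%). At 1.5-fold, Adora2a was the only receptor apart, and of all measured genes 1.34% were at least that much higher and 8.85% lower. On the array labelled GW9662 its ratio over vehicle was 0.34 (1.26-fold), and 275 of 15795 genes (1.74%) were as high or higher. Between the treated arrays, epoxides over GW9662, the ratio was 0.41 (1.33-fold), which 356 of 16049 genes (2.22%) reached. The comparisons share arrays, so these 3 ratios are not separate evidence.

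Spot error can be gauged from 219 probes printed at least 5 times and detected on all arrays. The SD among their copies gave an SD of a log2 ratio of 0.082 for either treated array over vehicle and 0.079 for epoxides over GW9662. The Adora2a ratios were 9.14, 4.10 and 5.28 times these values. The SDs rest on medians over those 219 probes, not on readings of the Adora2a spot. The scanner software put the error of the Adora2a signal itself at 10.005% for epoxides, 10.018% for GW9662 and 10.038% with vehicle. That error is larger than the spread among copies, so the multiples would be smaller with it. Spot error leaves out culture, labelling and hybridisation, and 36.1% of all measured genes lay over 3 such SDs from 0 in the first comparison, against 10.5% in the second and 28.0% in the third.

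Features of the array move with some ratios and were set beside that of Adora2a. The spot lies in row 265 of 532, within a band of 220 rows ending at row 400, called the middle band here. The band was picked in these data because copies of a probe disagree there. Of readings of probes with at least 5 copies, 7.69% in the band and 0.589% in the other rows differed at least 2-fold from the median of the copies. For probes above background on all arrays these shares were 0.394% (11 of 2790 readings) and 0.0265% (1 of 3780). The other measured spots within 10 rows and 10 columns of Adora2a had a median ratio of -0.061 for epoxides over vehicle (209 spots, quartiles -0.28 and 0.075) and of -0.015 for GW9662 over vehicle (206 spots, quartiles -0.080 and 0.064). Among genes read in the middle band, 0.714% (48 of 6725) had an epoxide ratio as high as Adora2a, against 0.561% (51 of 9093) in other rows. For GW9662 the shares were 3.46% (232 of 6705) and 0.473% (43 of 9090), so most genes with a GW9662 ratio like that of Adora2a were read in the band. The probe has 35% G and C bases, and the 3719 genes read by probes of that content had a median epoxide ratio of 0.11, with 25 of them (0.672%) at or above Adora2a. With a trend in GC content and signal removed, its ratios were 0.60 for epoxides over vehicle and 0.30 for GW9662 over vehicle. The part of the array region in the Adora2a ratios was not tested, as no second spot reads the gene.

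No other measured receptor had a ratio over vehicle this high. Across the 8 measured receptors the ratios of epoxides over vehicle ran from -0.32 to 0.75 with a median of -0.10, beside a median of -0.073 over all measured genes. For GW9662 over vehicle they ran from -0.12 to 0.34 with a median of -0.044, beside -0.022 over all genes, and 0 of 8 were 2-fold apart, beside 0.823% of all genes (0.355% higher and 0.469% lower). Epoxides over GW9662 gave -0.23 to 0.41 with a median of -0.061, beside -0.056, and again 0 of 8 at 2-fold, beside 1.17% of all genes (0.206% higher and 0.96% lower). At 1.5-fold no receptor was apart in these comparisons either, whereas 0.696% of all genes were higher and 1.15% lower for GW9662 over vehicle, and 0.947% higher and 4.8% lower for epoxides over GW9662. In the first comparison 6 of the 8 ratios were below 0, while 38.9% of all measured genes were above 0. Only 3 of the 8 were below 0 with quantile normalization, cyclic loess or the GC and signal trend removed. The median of all genes moved too, to 0.0083, -0.0087 and 0.0041 with these settings. Hrh4 and Ltb4r1 were below 0 with each of these settings, whereas the sign for Adora2b, Adora3, C3ar1 and Cysltr2 depended on the setting.

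**Figure D2:**
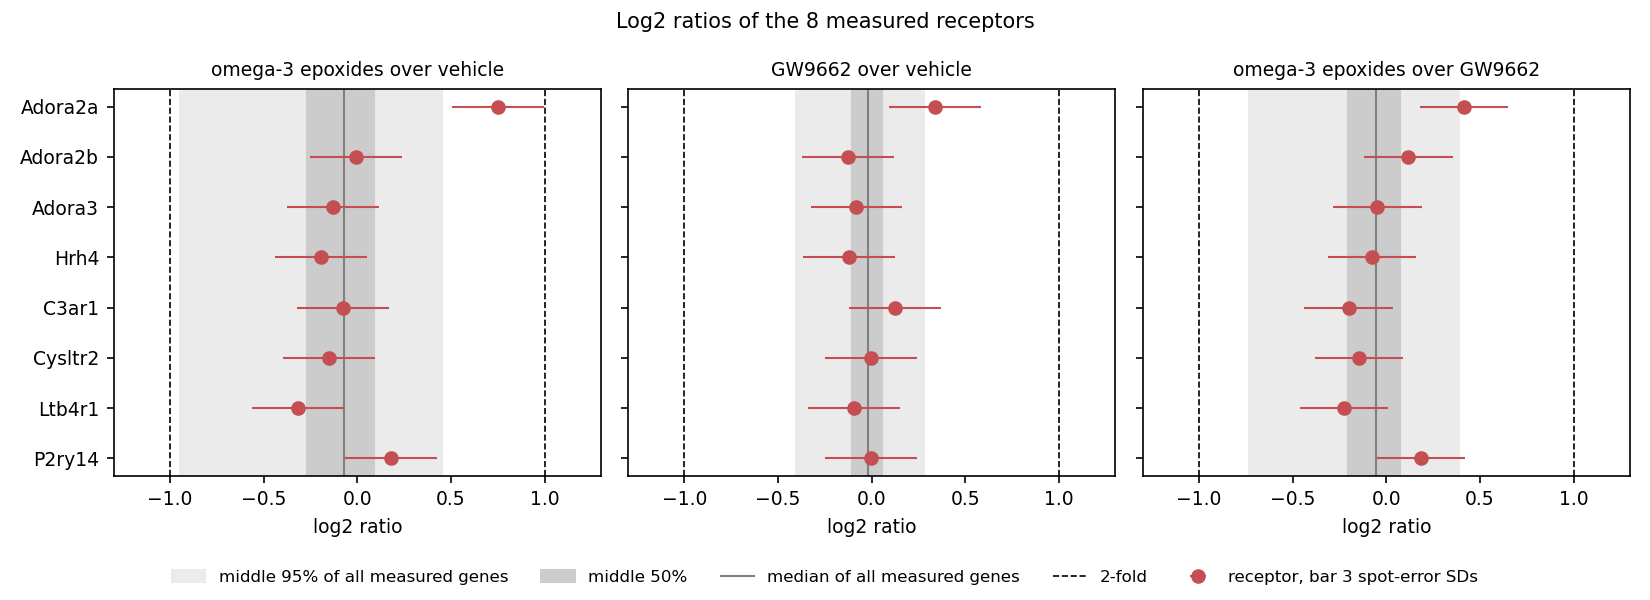
Log2 ratio (horizontal axis) of each measured receptor in the 3 comparisons, with bars of 3 spot-error SDs to each side, over the middle 50% and middle 95% of all measured genes. Adora2a, at 0.75, 0.34 and 0.41, lies outside the middle 95% in each panel, and no receptor reaches the 2-fold lines.

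Adora2b, a Gs-coupled adenosine receptor of low affinity for its ligand, is read by 2 probes. The probe at base 1723 of the transcript (mm9 chr11:62079834-62079893) had levels of 1.34 for epoxides, 1.22 for GW9662 and 1.35 with vehicle. The probe at base 643 (chr11:62078754-62078813) had -1.70, -1.60 and -1.47 in the same order. By the first of these the array labelled epoxides read close to vehicle, and by the second both treated arrays read below it. The sequences are shown because they are separate readings of 1 transcript, 1080 bases apart. The names carry the position in the transcript, and neither stretch holds AATAAA.
Adora2b 1723: ttattgggacctaaagtgtgaaaattttac
Adora2b 643: aacttctttgggtgtgtccttcctccactg

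By the probe at 1723 the Adora2b ratio over vehicle was -0.0060 for epoxides, and by the probe at 643 it was -0.22. Both probes gave -0.12 for GW9662. For epoxides over GW9662 they gave 0.12 and -0.10 and so differed in sign. The probe at 1723 has 35% G and C bases and that at 643 has 50%. Both spots lie in the middle band. By the probe at 1723 the epoxide ratio was positive, at up to 0.022, with normexp, quantile normalization, cyclic loess or the scale of detected probes. With the trend in GC and signal removed it was -0.16, and epoxides over GW9662 gave 0.0090.

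Adora3 encodes the Gi-coupled adenosine receptor that enhances degranulation of mouse mast cells. Its level was 5.40 for epoxides, 5.45 for GW9662 and 5.53 with vehicle, so the 3 arrays nearly coincided. The ratios over vehicle were -0.13 with epoxides and -0.082 with GW9662, both within 2 spot-error SDs of 0, and the first was positive, at up to 0.058, with quantile normalization, cyclic loess or the trend removed. Unlike Adora2a, which had 17 genes with both ratios over vehicle within 0.1 of its own among 15698, Adora3 shared its pair of ratios with 3017 genes. The Adora3 probe (chr3:105711212-105711271), shown beside that of Adora2a as a further adenosine receptor read at AATAAA, ends as follows.
Adora3: gtgcatttgagcaAATAAAagatgatgccc

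P2ry14, a Gi-coupled receptor for UDP-glucose and other UDP-sugars, was the other receptor with a positive ratio for epoxides over vehicle. It read 4.01 on the array labelled epoxides, 3.82 on that labelled GW9662 and 3.82 with vehicle. The array labelled epoxides was higher than both others, which coincided. Over vehicle the ratio was 0.18 (1.13-fold) with epoxides and -0.0023 with GW9662, and epoxides over GW9662 gave 0.18. The first is 2.22 spot-error SDs, and 14.2% of all measured genes were as high or higher. The probe (chr3:58918548-58918607, reverse strand) lies outside the middle band, and without the band the ratio kept its sign. It shares its GC content of 35% with the Adora2a probe, and genes read at that content had a median of 0.11. The sequence is shown for that reason.
P2ry14: tgtgccAATAAAcaagttgtcttcaaaacc

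Of the 12 receptor probes, 4 hold AATAAA on the strand given (Adora2a, Adora3, P2ry14 and 1 of the Cysltr1 probes), as do 12.6% of the 39429 probes on the array. Only this strand was searched.

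Hrh4 encodes the Gi-coupled histamine receptor that draws mast cells toward histamine. With epoxides its level was -2.54, with GW9662 -2.47 and with vehicle -2.35. Both treated arrays lay below vehicle, with ratios of -0.19 and -0.12, and 33.1% and 22.0% of all measured genes had ratios as low or lower. Under the 8 alternatives that give a value the Hrh4 ratios over vehicle were negative. They lay between -0.22 and -0.050 for epoxides and between -0.19 and -0.092 for GW9662. The -0.19 comes from the value table, and alternatives that keep the scanner files' labels gave -0.12 to -0.092. The mean of probes and no filter return the reported Hrh4 ratios.

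The receptors for the complement fragments differed in whether they could be read. C3ar1, the receptor for the anaphylatoxin C3a, had a level of 0.025 with epoxides, 0.23 with GW9662 and 0.10 with vehicle. The array labelled GW9662 was thus highest and that labelled epoxides lowest. Over vehicle the ratio was -0.076 with epoxides and 0.13 with GW9662, and epoxides over GW9662 gave -0.20, all under 3 spot-error SDs. Its probe (chr6:122798222-122798281) lies in row 508, and the GW9662 ratio stayed between 0.12 and 0.15 under all alternatives that keep the scanner files' labels.

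C5ar1, the receptor for the anaphylatoxin C5a, was well above background on 1 array only. That was the array labelled epoxides, with a level of -4.75. It read -4.99 on that labelled GW9662 and -5.98 with vehicle, both not well above background. The raw signal was 2.17, 1.87 and 1.38 times the background in the same order. For a comparison, each dim array was given its detection limit, or its own level where that was higher. The limit is the dimmest spot of the array that passed as well above background. It was -4.84 with vehicle and -5.03 on the array labelled GW9662. The latter lies just under the C5ar1 reading that did not pass, so the limit is no strict bound. The reading labelled epoxides was 1.06-fold over the vehicle limit and 1.18-fold over the GW9662 reading itself. The scanner software put the errors of the C5ar1 signals at 16.0% for epoxides, 24.1% for GW9662 and 51.3% with vehicle. Neither fold is taken as a difference. With no filter on dim probes its log2 ratios over vehicle were 1.23 for epoxides and 0.99 for GW9662, values that rest on a vehicle reading not separated from background. The probe (chr7:16832243-16832302, reverse strand) lies in row 395, within the middle band.

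Among Ltb4r1, Cysltr1 and Cysltr2, Cysltr1 was not measured, and Ltb4r1 had the only ratio over vehicle beyond 3 spot-error SDs. It encodes the high-affinity, Gi-coupled receptor for leukotriene B4, a chemoattractant for mast cell progenitors. It read 1.63 with epoxides, 1.86 with GW9662 and 1.95 with vehicle. The array labelled epoxides was lowest, with a ratio over vehicle of -0.32 (1.25-fold lower), which is -3.87 in spot-error SDs, and the GW9662 ratio was -0.093. Of all measured genes, 20.7% had an epoxide ratio as low or lower. Its probe (chr14:56387175-56387234) has 55% G and C bases, the highest share among the receptor probes, and genes read at that content had a median epoxide ratio of -0.34. Once a trend in GC and signal was taken out, the Ltb4r1 ratio was -0.067. Its spot, in row 404, has neighbours with a median epoxide ratio of 0.031.

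Cysltr2, which binds the cysteinyl leukotrienes and couples mainly to Gq, was read dimly (chr14:73429010-73429069) but well above background on all arrays. Its level was -3.71 with epoxides, -3.57 with GW9662 and -3.56 with vehicle. The epoxide ratio over vehicle was -0.15, and it was 0.17 with the GC and signal trend removed and 0.080 with quantile normalization, so its sign depends on the processing. The GW9662 ratio was -0.0061.

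Cysltr1, the receptor for cysteinyl leukotrienes that is blocked by the drug montelukast, was not well above background on any array by either of its probes. The probe at base 2723 of the transcript (chrX:103772044-103772103) read -7.56 on the array labelled epoxides, -7.34 on that labelled GW9662 and -7.14 with vehicle. The probe at base 2911 (chrX:103771856-103771915) read -6.50, -7.12 and -6.91 in the same order. No fold is given for values at background.

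**Figure D3:**
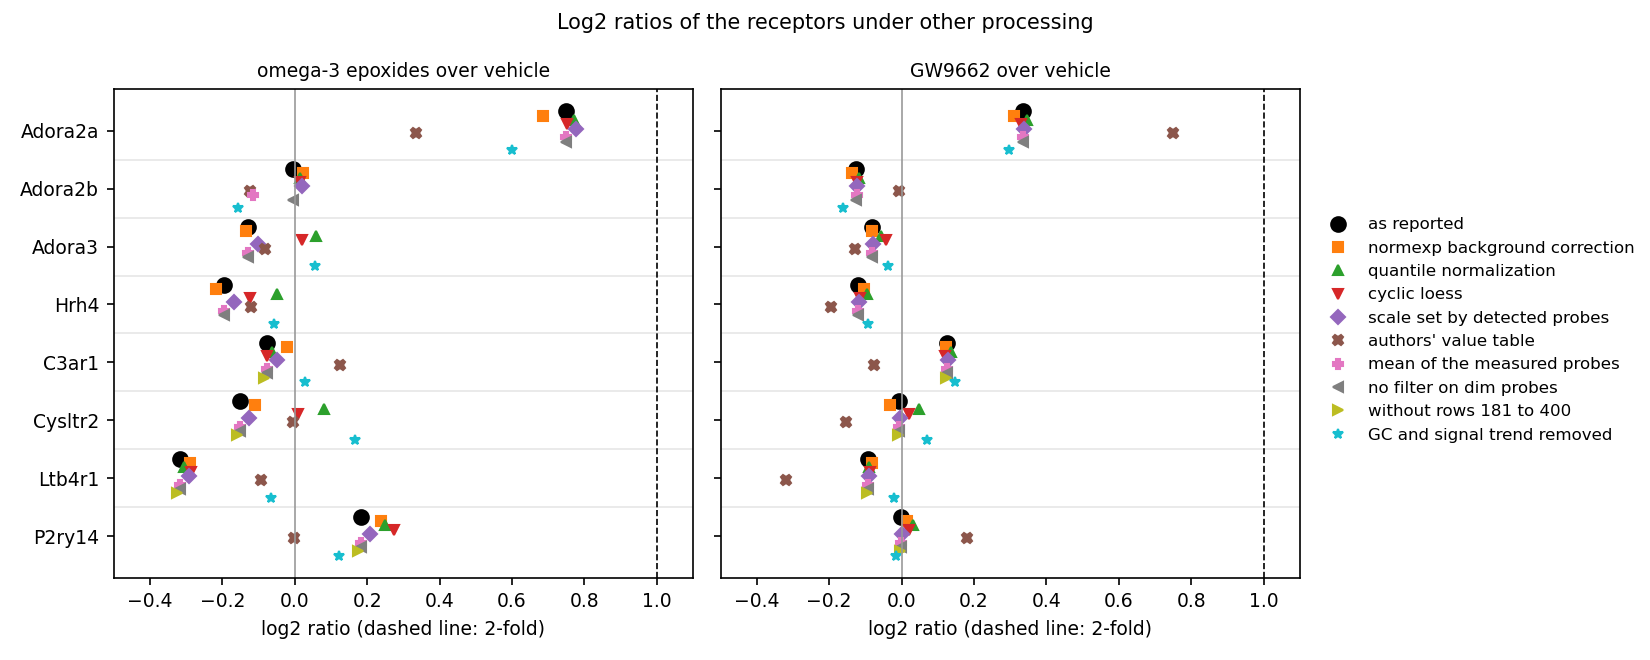
Log2 ratio over vehicle (horizontal axis) of each measured receptor as reported and under 9 alternatives, for the array labelled epoxides (left panel) and the array labelled GW9662 (right panel). The Adora2a points lie between 0.30 and 0.78 and change places between the panels, 0.34 against 0.75, with the authors' value table.

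Related receptors and the signalling machinery were described from 6 lists drawn up by function. Of 15 further adenosine, histamine, complement, leukotriene and P2Y receptors, 6 were measured in each comparison with vehicle. Among genes measured on both arrays of a comparison with vehicle, the list held the only ones of the 6 lists that were 2-fold apart. These were 1 higher and 1 lower for epoxides over vehicle, where 0.215% of all measured genes were higher and 2.07% lower. P2ry2, a receptor for ATP and UTP, read -2.83 with epoxides, -4.18 with GW9662 and -4.35 with vehicle, an epoxide ratio over vehicle of 1.52. Ltb4r2, the low-affinity receptor for leukotriene B4, had -4.39, -3.74 and -3.24 in the same order, an epoxide ratio of -1.15. Both genes are read by 1 probe in the middle band. Their dimmest readings were -4.35 for P2ry2 with vehicle and -4.39 for Ltb4r2 with epoxides, beside detection limits of -4.84 and -5.57 on those arrays. With normexp the ratios were 0.91 and -0.87, under 2-fold. Ltb4r2 was under 2-fold with quantile normalization, cyclic loess and the trend removed too, where it had -0.88, -0.97 and -0.61. P2ry10, a receptor for lysophosphatidylserine, had an epoxide ratio of 0.38 and a GW9662 ratio of 0.28, outside the band. Of 16 chemoattractant, Mrgpr, cannabinoid and PAF receptors, 5 were measured. The ratios of Cx3cr1, the fractalkine receptor, were 0.097 for epoxides and -0.16 for GW9662. The cannabinoid receptor Cnr2 had 0.17 and -0.13. Mrgprb2, the receptor for basic secretagogues on mouse mast cells, had 0.014 and -0.11, and its epoxide ratio was -0.022 with normexp. That of Cnr2 was 0.013 with the trend in GC and signal removed.

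Of 22 heterotrimeric G protein subunits, 18 were measured. For epoxides over vehicle 15 of the 18 were below 0, with a median of -0.12, while 38.9% of all measured genes were above 0. With quantile normalization 11 were below 0, and with cyclic loess 10. For GW9662 over vehicle 13 of 18 were below 0, with a median of -0.043, while 42.2% of all measured genes were above 0. That count was 9 with the GC and signal trend removed, so the number of subunits below 0 depends on the scaling. The subunits farthest from 0 were Gng11 (-0.84 for epoxides and -0.29 for GW9662), Gnb5 (-0.44 and -0.075) and Gna15 (-0.38 and -0.14). With that trend removed, Gnb5 had -0.12 and 0.0015 and Gna15 had -0.034 and -0.049. None was 2-fold apart. The 15 measured RGS proteins, receptor kinases and arrestins, which end receptor signalling, had medians of -0.020 for epoxides and -0.022 for GW9662. Among them Rgs3 had -0.64 and -0.19, the arrestin Arrb2 had -0.49 and -0.13, and Grk2, a kinase that marks active receptors for arrestin, had 0.36 and 0.023. Rgs3 and Arrb2 are read at 51.7% G and C bases and Grk2 at 35%, with Arrb2 and Grk2 in the middle band. Genes read at 55% had a median epoxide ratio of -0.34, and those at 35% had 0.11.

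Effectors of these receptors were measured for 16 of 27 genes with epoxides and 15 with GW9662, with medians of -0.0032 and -0.019. Prkar2a, a regulatory subunit of the cyclic AMP dependent kinase, had 0.35 and 0.34, but 0.012 and 0.14 with normexp, from a probe in the middle band. Its catalytic subunit Prkaca had -0.34 and -0.15, and the phospholipase Plcb2 had -0.38 and -0.25. Over the mean of its measured probes Plcb2 had -0.094 and 0.19, so the sign for GW9662 turned. Pde8a, a cyclic AMP phosphodiesterase, was well above background with vehicle only, so no ratio is given. By a probe in the middle band it read -4.04 with vehicle, -7.81 with epoxides and -7.26 with GW9662. Both treated readings lie under the detection limits of their arrays, -5.57 and -5.03. Adcy6, an adenylyl cyclase, passed with epoxides only, at -5.09, against -5.02 with GW9662 and -4.87 with vehicle. Of 17 genes that make or clear the ligands, 14 were measured, with medians of -0.079 and -0.058. C3, the source of C3a, had -0.79 and -0.21. A second C3 probe gave -0.52 and -0.0019, and with the trend in GC and signal removed C3 had -0.36 and -0.090. The adenosine kinase Adk had -0.29 and -0.042. The nucleoside transporter Slc29a2 had -0.22 and -0.41, but its epoxide ratio was 0.26 with that trend removed. Nt5e, which makes extracellular adenosine from AMP, was not well above background on any array.

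**Figure D4:**
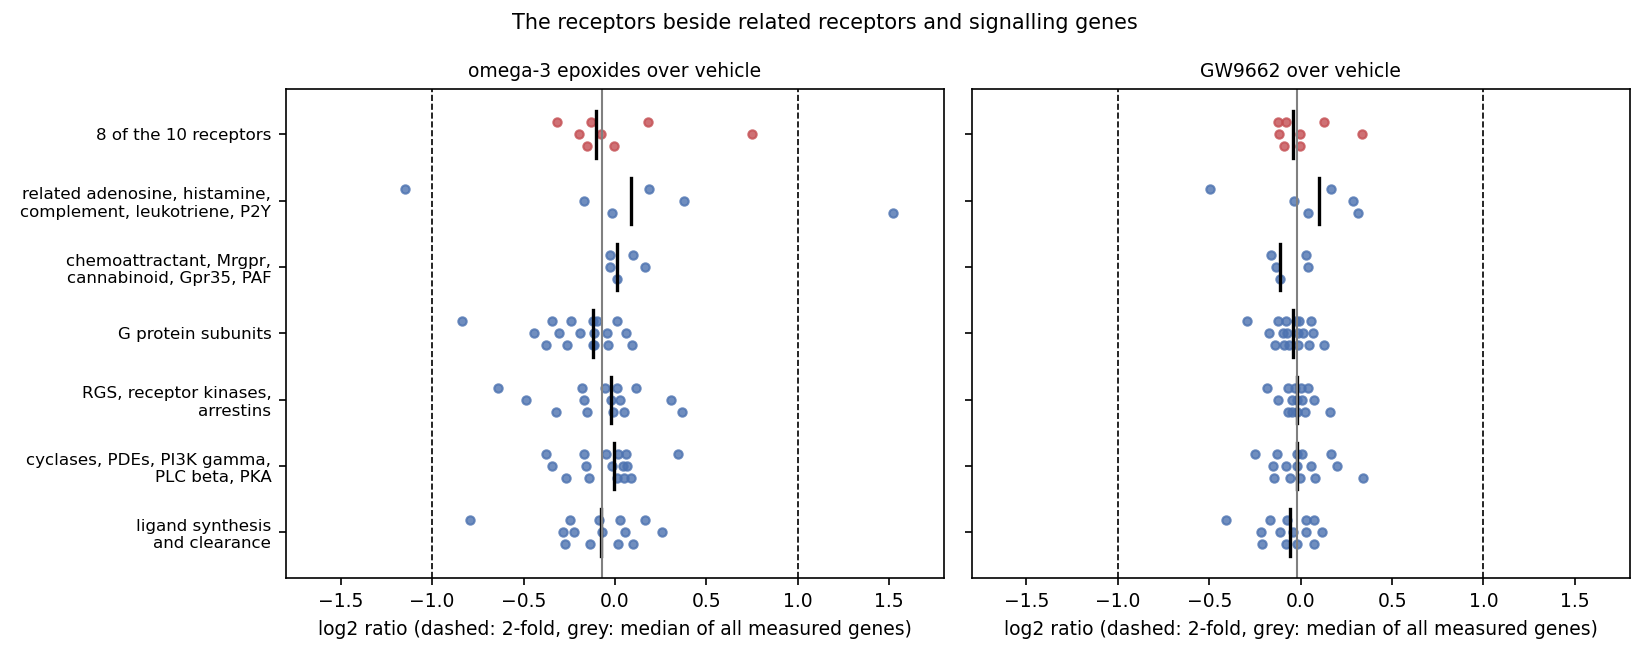
Log2 ratios over vehicle (horizontal axis) of the 8 measured receptors (top row) and of the measured genes of 6 lists, 1 point per gene, with a black bar at each median, for the array labelled epoxides (left) and the array labelled GW9662 (right). P2ry2 at 1.52 and Ltb4r2 at -1.15 are the only points beyond 2-fold, and the receptor farthest from 0 is Adora2a at 0.75.

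The mast cell label was borne out by 11 of 12 markers well above background on each array, all but Tpsab1. Their summed linear level, in units of the 75th percentile, was 512 on the array labelled epoxides, 591 on that labelled GW9662 and 660 with vehicle. Of 6 markers of macrophages and monocytes, cells that also express Adora2a, C3ar1 and C5ar1, 5 were above background on each array. Their sums were 1.71, 1.72 and 1.71 in the same order, and their part in the Adora2a ratio was not tested. Sums for 7 neutrophil markers were 1.32, 1.97 and 1.91, and Ltf, Ngp and Prtn3 were at background throughout. The mast cell and neutrophil sums were thus lowest on the array labelled epoxides, as were the basophil and dendritic cell sums given below. The erythroid and megakaryocyte sum was lowest on that labelled GW9662. All measured genes had a median ratio of -0.073 for epoxides over vehicle, and the neutrophil and dendritic cell sums include markers at background. The part of any of these cell types in the Adora2a ratio was not tested either. All 4 eosinophil markers were at background on every array. Basophil markers, 4 of 5 above background, summed to 14.5, 14.8 and 15.1. Of 4 dendritic cell markers 2 were above background, with sums of 0.15, 0.18 and 0.19. Of 5 erythroid and megakaryocyte markers 3 were above background, with sums of 4.16, 3.94 and 4.55.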

How the data were processed

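The authors hybridised 200 ng of Cy3-labelled total RNA per sample to 1-colour Agilent arrays, per the labels' protocols, and the images were turned into spot values by version 11.5.1.1 of Agilent's Feature Extraction, per the submitters' processing notes. The deposited gProcessedSignal is a linear intensity, background-subtracted and detrended within the array, per the file headers, and not scaled between arrays. The authors' deposited value table holds a linear ratio, the processed intensity divided by 1 number per array, close to its 75th percentile (quotients constant within 0.001). The epoxide, GW9662 and vehicle columns had medians of 0.0455, 0.0369 and 0.0475. The scale and direction of its values are thus known, and which treated column is labelled rightly is not.

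From each log2 intensity the log2 of the array's 75th percentile, taken without control spots, was subtracted. Outlier spots were left out and copies of a probe averaged. Of several probes of a gene, the one brightest on average stood for it. Genes were named through the RefSeq table (GRCm38.p6) where the accession is in it (28330 of 39429 probes) and counted as measured when well above background on both arrays. The precision is limited by 1 array per group. Coordinates and positions in the transcript are those of the files (mm9), and whether a probe lies in coding sequence or a UTR was not analysed here. A call is a 2-fold difference. Alternatives used limma 3.58.1 in R 4.3.3. The computation of the ratios was tested on simulated data, which cannot show the spread between cultures.

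All 10 receptors were named with every probe, as were up to 3 genes per list farthest from 0 over vehicle and any list gene 2-fold apart. Nt5e, Pde8a and Adcy6 were named after their values were seen. One marker list is not reported here. The members and lists were chosen with earlier results of these data known.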

Additional observations from a re-analysis of the deposited data

How the results depend on the processing

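Alternatives were normexp background correction (offset 50), quantile normalization, the authors' value table, cyclic loess, a scale set by detected probes, the mean of the measured probes, no filter on dim probes, omission of the middle band of rows, removal of a GC and signal trend, and 1.5-fold calls. The receptors apart numbered 1 rather than 0 for epoxides over vehicle with no filter (C5ar1) and at 1.5-fold (Adora2a), and 0 in the other comparisons throughout. The receptor median for epoxides over vehicle, -0.10 as reported, was 0.037 under quantile normalization, 0.042 without the trend and 0.011 under cyclic loess. For epoxides over GW9662, -0.061 as reported, it was 0.080, 0.059 and 0.027 with the same settings, 0.061 with the value table, 0.036 with no filter and -0.18 without the band. Other medians moved by less than the spot error, and the cause of these shifts was not tested. Over all genes, the 34 higher and 328 lower for epoxides over vehicle became 63 and 141 with quantile normalization, 55 and 185 with cyclic loess, 61 and 117 with the trend removed, 16 and 128 with normexp, 14 and 127 without the band, 594 and 2381 with no filter, and 212 and 1400 at 1.5-fold. For epoxides over GW9662, 33 and 154 became 56 and 88, 51 and 102, 58 and 86, 16 and 71, 11 and 16, 573 and 1860, and 152 and 771 with these settings. For GW9662 over vehicle, 56 and 74 became 3 and 0 without the band, 40 and 49 with normexp, 971 and 1077 with no filter, and 110 higher at 1.5-fold. The value table exchanges these counts. They rest on different numbers of genes. For epoxides over vehicle they are among 15818 genes as reported, 9927 without the band and 31104 with no filter. For epoxides over GW9662 these numbers are 16049, 10063 and 31089, and for GW9662 over vehicle 15795, 9924 and 31076. C5ar1 is 1 of the 594 genes higher with no filter. Leaving out the band removes Adora2a, Adora2b, Adora3 and Hrh4, so their ratios have no reading free of that region. Of 204 receptor ratios recomputed, 157 moved by less than the spot error and 47 by more. The spot error serves only as a yardstick, since all settings reprocess the same spots. The 157 include ratios that could not move. No filter returns the reported ratio of every measured receptor, and the mean of probes that of every gene with 1 probe. Adora2a was above vehicle in all 16 of its recomputed ratios over vehicle, but not all of these could have differed in sign. Its 1 probe was well above background on every array, so the mean of probes and no filter return its reported ratios. The value table only exchanges its reported ratios over vehicle, and gave Adora2a -0.41 for epoxides over GW9662, since its labels are exchanged. No paired analysis was possible because each group has 1 array.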
